A study of Mus musculus with 4 samples.

Results

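The genes described here are 10 regulators grouped by their ties to blood progenitors or erythroleukemia: the ETS factor genes Spi1, Fli1, Etv6 and Erg, the GATA factor gene Gata2, Runx1, the basic helix-loop-helix gene Lyl1, Myb, the zinc finger gene Ikzf1, and the receptor gene Kit. They were taken by gene symbol from a table of 17393 genes, and all 10 were listed in it. RNA came from DS19 cells, a mouse erythroleukemia (MEL) line of transformed erythroid precursors, which mature partly toward red cells when treated with dimethyl sulfoxide. There were 2 libraries of Wdr26 knockout cells (genotype Wdr26-/-) and 2 of wild-type cells, numbered 1 and 2 in each genotype. The culture description that all 4 libraries share names 1.5% dimethyl sulfoxide but leaves unsaid whether it was given to the cells sequenced. The labels do not say whether the knockout cells were a clone or a pool, nor whether libraries 1 and 2 are separate cultures, so p-values reflect only how far these samples varied, which may be technical variation.

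PU.1, the product of Spi1, and Fli1 are the ETS proteins best known from Friend virus erythroleukemia in mice, where proviral insertion next to either gene keeps it active. PU.1 and GATA1 bind and inhibit each other, and erythroid maturation is accompanied by loss of PU.1. GATA2 occupies many sites in progenitors that GATA1 takes over as cells mature, an exchange known as the GATA switch. Myb and Kit are high in dividing progenitors and decline in late erythroblasts, and Runx1, Lyl1, Erg and Fli1 work together with GATA2 at progenitor enhancers.

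Values are FPKM, which divide the fragments of a gene by its length and by the depth of the library, so that levels of different genes in a library can be ordered. Depth, estimated from the size of the smallest steps between values, was similar in all libraries, between 19050000 and 20300000 fragments. Wdr26, which encodes a subunit of the CTLH ubiquitin ligase, fell to 8.42 ± 0.820 FPKM in knockout cells, against 53.9 ± 2.11 FPKM in wild-type cells (SD, n = 2 each; limma, Benjamini-Hochberg adjusted p = 0.0063). That adjusted p was 0.0675 when low genes were not filtered out. Each knockout value lay under each wild-type value for 10 of 14 erythroid maturation genes (10.8% of all genes tested). The regulators and every gene list used here were chosen with earlier results of these data known. Their counts and medians beside all genes are therefore descriptions and not independent support. The alpha globin gene Hba-a1 stood between 122150 and 168690 FPKM, with overlapping genotypes. Defining markers of mast cells, lymphocytes, endothelium and fibroblasts summed, for each cell type alone, to at most 0.69 FPKM in any library. Only 2 of 5 mast cell, 3 of 6 lymphocyte and 2 of 5 fibroblast markers were listed, with 4 of 4 for endothelium. Megakaryocyte markers, led by Itga2b, summed to between 253 and 308 FPKM. In these bulk samples, fewer cells that express a gene and less RNA per cell cannot be told apart.

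The 10 regulators spanned levels from high to a listed 0. Lyl1 and Spi1 led in every library, Runx1 followed, and Ikzf1, Fli1 and Etv6 formed a middle group. Gata2 and Myb were low, and Erg and Kit were listed at 0 in all 4 libraries. Lyl1 exceeded between 87.9% and 92.2% of the genes tested in its library and Spi1 between 83.1% and 88.3%, while Gata2 exceeded between 12.5% and 23.2%. Lyl1 was above Spi1 in each of the 4 libraries, although the lowest Lyl1 value, 53.2 FPKM in knockout library 2, was under the highest Spi1 value, 57.4 FPKM in knockout library 1. The order was the same everywhere except for Ikzf1 and Fli1: Ikzf1 was above Fli1 in 3 of 4 libraries, and Fli1 was above Ikzf1 in knockout library 2. The ranges of Fli1 and Etv6 over the 4 libraries also overlapped, although Fli1 was above Etv6 within each library.

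**Figure D1:**
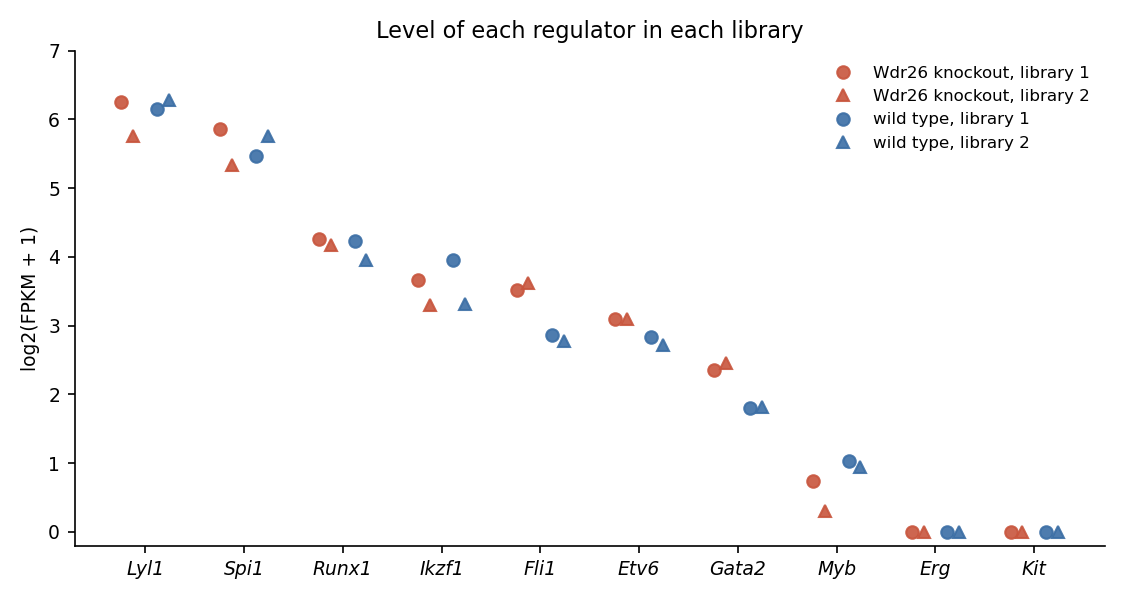
Each point is the level of a gene in a library, as log2(FPKM + 1) on the vertical axis, with knockout libraries left of wild-type libraries and circles and triangles for libraries 1 and 2. The genotypes are apart for Fli1, Etv6, Gata2 and Myb and overlap for Lyl1, Spi1, Runx1 and Ikzf1, while Erg and Kit lie at 0.

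Knockout was compared with wild type by limma on log2(FPKM + 1) across the 10670 genes that reached 1 FPKM in 2 or more libraries. Of the 10 regulators 7 passed that filter, each with at least 1 FPKM in every library, and Myb, Erg and Kit did not. None of the 7 passed at a Benjamini-Hochberg adjusted p under 0.05 (0 of 7, against 0.0937% of all genes tested). Fli1 and Gata2, 2 of the 7, had an unadjusted p under 0.05, against 11.4% of all genes for both directions together. At that level 962 of the 10670 genes were higher and 256 lower in knockout. Fli1, Gata2 and Etv6 were higher in each knockout library than in either wild-type library, 3 of 7, where 29.9% of all genes tested were, and 0 of 7 were lower in both, against 10.8% of all genes. With each library centred on its median the same 3 genes were still apart, and 19.9% of all genes were then higher throughout the knockout libraries and 20.1% lower throughout. The median log2 change of the 7 was 0.12, beside 0.07 for all genes tested; it ran from 0.08 to 0.25 when single libraries were left out and was 0.04 on median-centred values. With 2 libraries against 2 the smallest p of an exact permutation test is 0.333, and such tests were not used.

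**Figure D2:**
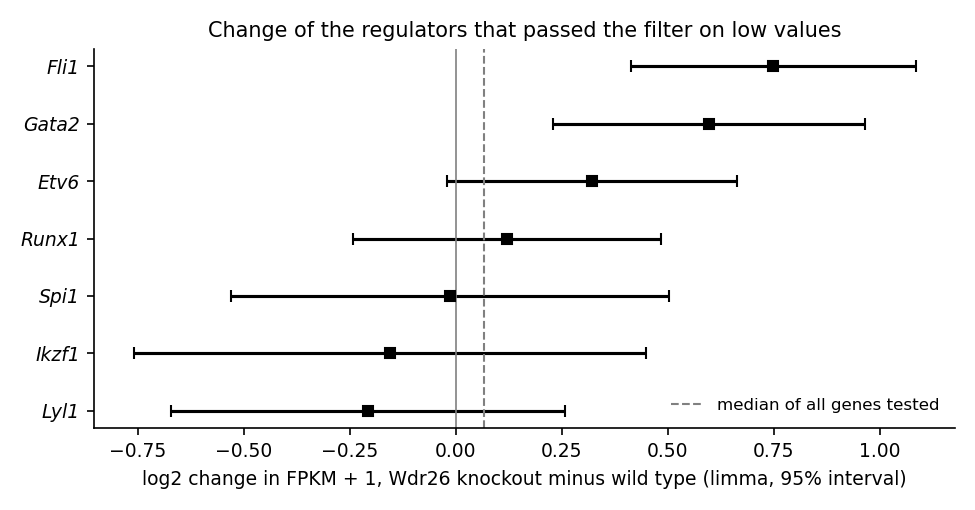
Squares give the log2 change of the 7 regulators that passed the filter, knockout minus wild type, and bars the 95% interval from limma; the dashed line is the median of all genes tested. The intervals of Fli1 and Gata2 lie above 0, and those of the other 5 include 0.

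Fli1 (gene ID 14247, mm10 chromosome 9, 32422204 to 32543432) had the largest log2 change of the 7 regulators tested. It stood at 10.5 and 11.3 FPKM in knockout libraries 1 and 2, against 6.28 and 5.87 FPKM in wild-type libraries 1 and 2. Both knockout values were above both wild-type values by far more than the libraries of a genotype differed. The knockout mean of 10.9 ± 0.566 FPKM was 1.79 times that of wild type, 6.08 ± 0.290 FPKM (SD, n = 2 each), from about 680 and 714 fragments in knockout and 408 and 395 in wild type. The log2 change was 0.75 (SE 0.14), with a limma 95% interval from 0.41 to 1.08, an unadjusted p of 0.0015 and an adjusted p of 0.158. By p, Fli1 ranked 102 among the genes tested. The adjusted p was 0.00862 or 0.0499 when knockout library 1 or 2 was left out, and 0.683 or 0.701 when wild-type library 1 or 2 was left out; in each such fit the lone library is assumed to vary like the pair that remains.

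Spi1 (gene ID 20375, chromosome 2, 91082374 to 91115759) gave no difference that exceeded the spread between libraries. Its values were 57.4 and 39.5 FPKM in knockout and 43.3 and 53.4 FPKM in wild type. The highest and the lowest value were both from knockout cells, so the genotypes overlapped completely. The means were 48.5 ± 12.7 FPKM in knockout and 48.4 ± 7.18 FPKM in wild type (SD, n = 2 each), and the log2 change of −0.01 had a limma 95% interval from −0.53 to 0.50 (adjusted p = 0.993). Its direction depended on single libraries: the log2 change was −0.28 with knockout library 1 left out, 0.25 with knockout library 2 left out, −0.16 with wild-type library 1 left out and 0.14 with wild-type library 2 left out.

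Etv6 (gene ID 14011, chromosome 6, 134035700 to 134270158), an ETS repressor that blood stem cells need for their survival in the marrow, was higher in knockout by a small amount. It was listed at 7.59 and 7.52 FPKM in knockout and at 6.15 and 5.56 FPKM in wild type. The genotypes did not overlap, and the wild-type libraries differed more from each other than the knockout libraries did. The knockout mean was 1.29 times the wild-type mean, with a log2 change of 0.32 (SE 0.14, 95% interval −0.02 to 0.66, limma adjusted p = 0.476). Erg, the closest relative of Fli1, was listed at 0 in all 4 libraries, as were 5 of the 21 other ETS genes in the table.

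Gata2 (gene ID 14461, chromosome 6, 88193891 to 88207032) was low and differed between the genotypes nearly as much as Fli1. It stood at 4.11 and 4.52 FPKM in knockout and at 2.49 and 2.53 FPKM in wild type. Both pairs were tight and lay apart. The knockout mean of 4.32 ± 0.290 FPKM was 1.72 times that of wild type, 2.51 ± 0.0283 FPKM (SD, n = 2 each). About 287 and 307 fragments lay behind the knockout values and 174 and 183 behind the wild-type values. The log2 change was 0.60 (SE 0.15, 95% interval 0.23 to 0.97), and neither the adjusted p of 0.254 in limma nor that without any single library, 0.110 to 0.912, was under 0.05. Because 1 was added to each value before the logarithm, log2 changes understate the change of genes this low. The Gata2 value includes a transcript assembled from the reads, as does that of Ikzf1.

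Lyl1 (gene ID 17095, chromosome 8, 84701423 to 84704716), a relative of the erythroid factor gene Tal1, stood at 75.6 and 53.2 FPKM in knockout and at 70.4 and 76.5 FPKM in wild type. Knockout library 2 was the lowest, and knockout library 1 lay between the wild-type libraries. The log2 change was −0.21 (SE 0.19, 95% interval −0.67 to 0.26, limma adjusted p = 0.778). It was 0.04 with knockout library 2 left out and −0.46 with knockout library 1 left out. The annotated end of Lyl1 overlaps by a few bases that of Nfix, which averaged 20.7 FPKM in knockout and 19.7 FPKM in wild type, and 6 of the 10 regulators overlap some other annotated gene. The sources used here do not tell whether strand was kept, so reads of overlapping genes may be shared.

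Runx1 (gene ID 12394, chromosome 16, 92601466 to 92826074), the DNA-binding partner of core binding factor beta, overlapped between the genotypes. It stood at 18.2 and 17.0 FPKM in knockout and at 17.7 and 14.6 FPKM in wild type. Wild-type library 2 was lowest and the other 3 values lay close together. The log2 change was 0.12 (SE 0.15, 95% interval −0.24 to 0.49, limma adjusted p = 0.854). It was −0.01 with wild-type library 2 left out and 0.25 with wild-type library 1 left out.

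Myb (gene ID 17863, chromosome 10, 21124930 to 21160984), which encodes the factor that keeps erythroid progenitors dividing, was barely present and lower in knockout. It was listed at 0.67 and 0.24 FPKM in knockout and at 1.04 and 0.92 FPKM in wild type. Both knockout values were below both wild-type values, and the knockout libraries differed more from each other than the wild-type libraries did. About 44 and 15 fragments lay behind the knockout values and about 69 and 63 behind the wild-type values. The knockout mean was 46.4% of the wild-type mean. Myb was too low for the main test; in the fit without a filter its log2 change was −0.46 (SE 0.17, 95% interval −0.94 to 0.02, limma adjusted p = 0.505).

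Ikzf1 (gene ID 22778, chromosome 11, 11684962 to 11772930) encodes Ikaros, a zinc finger factor of lymphoid and erythroid precursors. It stood at 11.7 and 8.82 FPKM in knockout and at 14.5 and 8.96 FPKM in wild type. Both libraries numbered 1 were above both numbered 2, and the genotypes overlapped. The log2 change was −0.16 (SE 0.25, 95% interval −0.76 to 0.45, limma adjusted p = 0.891). It was 0.16 with wild-type library 1 left out, 0.03 with knockout library 2 left out, −0.34 with knockout library 1 left out and −0.48 with wild-type library 2 left out. Kit (gene ID 16590, chromosome 5, 75574987 to 75656722), the receptor for stem cell factor, was listed at 0 in all 4 libraries.

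Sequence before the annotated start sites was compared across the regulators. RefSeq promoter sequences of build GRCm38.p6 (mm10) were found for 8 of the 10 genes, with 14 start sites among them; Fli1 and Spi1 had no entry. The 250 bases before the start are shown for Gata2 and Etv6, whose values were apart between the genotypes, for Myb, which was lower in knockout, and for Lyl1, the most abundant regulator. They lie at chr6:88193641-88193890 and chr6:88198414-88198663 for the distal and the proximal Gata2 start, at chr6:134035450-134035699 for Etv6, at chr10:21160985-21161234 for Myb and at chr8:84701207-84701456 for Lyl1, the Myb sequence on the minus strand and the others on the plus strand. Capitals mark GGAAG or its reverse complement CTTCC, a motif of ETS proteins that is longer than their core GGAA.
Gata2 distal start: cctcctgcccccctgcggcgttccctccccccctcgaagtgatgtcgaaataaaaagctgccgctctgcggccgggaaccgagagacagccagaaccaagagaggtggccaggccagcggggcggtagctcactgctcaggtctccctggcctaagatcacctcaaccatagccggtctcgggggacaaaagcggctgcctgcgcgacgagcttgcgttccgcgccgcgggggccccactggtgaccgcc
Gata2 proximal start: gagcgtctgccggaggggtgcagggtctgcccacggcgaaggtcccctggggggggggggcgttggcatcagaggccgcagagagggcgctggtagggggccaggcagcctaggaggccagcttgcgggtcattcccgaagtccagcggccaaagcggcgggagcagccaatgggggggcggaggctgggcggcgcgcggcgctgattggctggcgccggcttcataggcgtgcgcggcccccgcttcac
Etv6: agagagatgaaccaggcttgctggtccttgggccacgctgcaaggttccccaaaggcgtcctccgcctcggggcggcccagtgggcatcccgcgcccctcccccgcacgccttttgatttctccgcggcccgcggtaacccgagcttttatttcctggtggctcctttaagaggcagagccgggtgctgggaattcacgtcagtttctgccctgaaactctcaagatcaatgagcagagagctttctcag
Myb: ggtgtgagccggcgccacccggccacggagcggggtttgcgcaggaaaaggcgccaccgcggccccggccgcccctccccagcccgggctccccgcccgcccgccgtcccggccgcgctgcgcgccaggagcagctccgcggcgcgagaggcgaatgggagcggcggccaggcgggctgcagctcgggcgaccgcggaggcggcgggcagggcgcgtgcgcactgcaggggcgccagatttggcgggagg
Lyl1: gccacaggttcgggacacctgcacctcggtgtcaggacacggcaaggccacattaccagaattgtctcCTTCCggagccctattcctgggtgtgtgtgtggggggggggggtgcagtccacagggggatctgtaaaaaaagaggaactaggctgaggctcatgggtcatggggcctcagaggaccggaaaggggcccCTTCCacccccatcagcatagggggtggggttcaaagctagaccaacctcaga
The Lyl1 sequence holds GGAAG or CTTCC at positions −182 and −53 from the start, and the other 4 shown hold neither. The shorter core GGAA or its reverse complement TTCC, which was not counted, does occur in each of the 5 sequences. Over all 14 windows of the regulators GGAAG or CTTCC is in 7, which belong to Erg, Ikzf1, Kit, Lyl1 and Runx1. The Kit windows overlap and hold the same match, at −221 and −225 from their starts, which is counted in each. GGAAG or CTTCC is present in 64.1% of the 32851 mouse promoter windows of the same length. The motif GATAA, searched on both strands, is in none of the 5 sequences, in 1 of the 14 windows, which belongs to Erg, and in 22.6% of all windows. The ratio of observed to expected CG dinucleotides was 0.785 and 0.741 before the Gata2 starts, 0.706 for Etv6 and 0.975 for Myb, against a median of 0.374 over all windows, while Lyl1 had 0.226. The deposited values are sums over a gene and do not show which Gata2 start was in use.

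Some ratios of regulators to partners and relatives in the same library were apart between the genotypes. The ratios are of FPKM and carry no test. Gata2 amounted to 0.783% and 1.00% of the level of Gata1 in knockout, against 0.538% and 0.517% in wild type, a mean ratio 1.69 times as high in knockout. Gata1 itself overlapped between genotypes, at 525 and 451 FPKM in knockout and 462 and 489 FPKM in wild type, so the shift in the ratio lay mainly on the side of Gata2. Fli1 reached 18.3% and 28.6% of the level of Spi1 in knockout, against 14.5% and 10.99% in wild type. Spi1 nevertheless ranked first of the 25 ETS genes in the table in every library, and its level relative to Gata1 overlapped, at 10.9% and 8.76% in knockout and 9.36% and 10.9% in wild type. Lyl1 stood at 31.8% and 23.9% of Tal1 in knockout and at 35.7% and 40.9% in wild type. Tal1, the erythroid member of the pair, was higher in both knockout libraries, at 237 and 223 FPKM against 197 and 187 FPKM in wild type (limma adjusted p = 0.543).

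The Runx and Myb families were each dominated by a relative that was not among the 10 regulators. Runx1 supplied 6.18% and 6.48% of the summed Runx family in knockout and 4.95% and 5.29% in wild type, and Runx2 reached at most 0.01 FPKM. The remainder was Runx3, at 275 and 246 FPKM in knockout and 340 and 261 FPKM in wild type, with overlapping genotypes (limma adjusted p = 0.769). Cbfb, which encodes the shared partner subunit, stood at 4.87 and 3.58 FPKM in knockout and 4.86 and 3.64 FPKM in wild type, well under Runx1. Myb supplied 4.03% and 3.57% of the Myb family in knockout and 6.94% and 9.98% in wild type. Mybl2, the relative that serves the cell cycle of most dividing cells, stood at 15.2 and 5.85 FPKM in knockout and at 13.0 and 7.71 FPKM in wild type, so that both libraries numbered 1 were above both numbered 2. Mybl1 was between 0.59 and 0.93 FPKM in all 4 libraries. Ikzf1 supplied 40.4% and 37.6% of its family in knockout and 46.6% and 39.2% in wild type. The family was summed over Ikzf1, Ikzf2, Ikzf4 and Ikzf5, without Ikzf3. The rest was mostly Ikzf5, at 11.6 and 11.1 FPKM in knockout and 11.8 and 10.5 FPKM in wild type.

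Of 9 ratios computed 5 were apart between the genotypes. No such share was computed for ratios of other genes. Of all genes tested, 29.9% were higher and 10.8% lower in both of the knockout libraries. Lyl1 and Runx1, whose ratios to Tal1 and to the Runx family were apart, overlapped on their own. The other 4 ratios overlapped: Spi1 to Gata1, Ikzf1 to its family, Spi1 to all ETS genes and Runx1 to Cbfb. Spi1 amounted to 29.1% and 21.7% of all ETS genes in knockout and 25.6% and 30.4% in wild type. Runx1 stood at 373% and 475% of Cbfb in knockout and 365% and 401% in wild type.

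**Figure D3:**
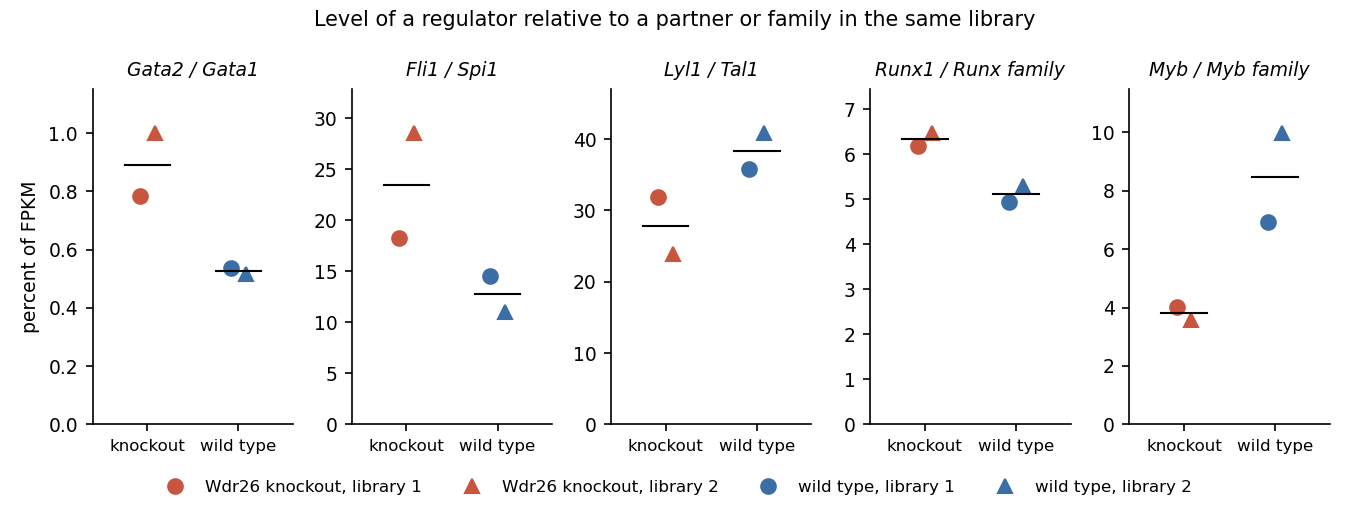
Each panel gives the level of a regulator as a percentage of a partner (Gata1, Spi1, Tal1) or of its summed family in the same library, with knockout left of wild type, circles and triangles for libraries 1 and 2 and lines at the means. The 5 ratios shown were chosen because they are apart between the genotypes, with Gata2, Fli1 and Runx1 higher and Lyl1 and Myb lower in knockout.

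The differences of the other ETS factors were small. Of 21 listed genes 10 were tested, 0 passed the threshold in either direction in limma and 0 had an unadjusted p under 0.05, 6 were higher and 1 lower in both of the knockout libraries (29.9% and 10.8% of all genes), and the median log2 change was 0.14 (0.07 over all genes). On median-centred values 3 were higher and 2 lower (19.9% and 20.1% of all genes). Those with the widest gaps were Elk1, a target of MAP kinase signalling, at 16.7 and 13.6 FPKM in knockout and 12.5 and 10.8 FPKM in wild type, and Elf1, at 10.7 and 11.9 FPKM in knockout and 9.47 and 8.01 FPKM in wild type. The most abundant, Erf and Elf2, overlapped, at 17.6 and 17.3 FPKM in knockout against 14.0 and 17.5 FPKM in wild type for Erf, and 16.2 and 15.7 FPKM against 18.1 and 15.3 FPKM for Elf2. Spib and Spic, the close relatives of Spi1, did not exceed 0.04 FPKM.

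Among the proteins that bind or oppose these regulators, 16 of 20 listed genes were tested and 0 passed in limma, with 7 higher and 3 lower in both of the knockout libraries (29.9% and 10.8% of all genes). In each direction 1 had an unadjusted p under 0.05, against 11.4% of all genes for both directions together. Cbfa2t3, which encodes the corepressor ETO2 of the Tal1 complex, was lower in knockout. It stood at 53.9 and 40.6 FPKM in knockout and 66.3 and 69.3 FPKM in wild type. Its log2 change was −0.53 (SE 0.17, unadjusted p = 0.020 and adjusted p = 0.337 in limma). That change ran from −0.73 to −0.33 when single libraries were left out. Cebpa, a granulocyte factor, was higher at 10.5 and 12.9 FPKM in knockout and 6.67 and 9.97 FPKM in wild type (limma adjusted p = 0.497). Zfpm1, the GATA1 cofactor FOG1, stood at 397 and 406 FPKM in knockout and at 335 and 360 FPKM in wild type. Lmo2, which bridges Tal1 and GATA proteins, overlapped, at 12.8 and 14.2 FPKM in knockout and 13.0 and 15.0 FPKM in wild type.

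Of myeloid genes listed as bound by PU.1, 6 of the 10 tested stood higher in both of the knockout libraries, while Spi1 itself overlapped. Binding by PU.1 was not measured in these libraries. Of 23 listed genes 10 were tested, with a median log2 change of 0.36 beside 0.07 for all genes. None passed in limma (0 of 10). At an unadjusted p under 0.05 there were 5 higher and 0 lower (962 and 256 of the 10670 genes tested). In both of the knockout libraries 6 were higher and 0 lower, where 29.9% of all genes were higher and 10.8% lower. Laptm5, a lysosomal membrane protein of blood cells, stood at 157 and 218 FPKM in knockout and 87.3 and 138 FPKM in wild type (log2 change 0.75, SE 0.26, adjusted p = 0.376 in limma). Coro1a, an actin regulator of blood cells, stood at 34.6 and 43.5 FPKM in knockout and 19.7 and 29.8 FPKM in wild type (limma adjusted p = 0.371). With single libraries left out the log2 change ran from 0.42 to 1.07 for Laptm5 and from 0.37 to 0.94 for Coro1a. In each genotype library 2 was the higher for both genes. The most abundant gene of the list, Csf2rb, which encodes the shared beta chain of the GM-CSF receptor, overlapped, at 1275 and 1456 FPKM in knockout and 1292 and 1356 FPKM in wild type. Defining markers of mature myeloid cells were near 0: 8 such markers summed to 3.50 and 2.84 FPKM in knockout and 3.3 and 1.80 FPKM in wild type, led by Cd68, with Elane at 0 and Lyz2 at no more than 0.10 FPKM.

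Among megakaryocyte genes listed as bound by Fli1, 6 of 12 were tested and 0 passed in limma. Binding was not measured in these libraries. In both of the knockout libraries 4 were higher and 1 lower (29.9% and 10.8% of all genes). At an unadjusted p under 0.05 there were 2 higher and 1 lower (962 and 256 of the 10670 genes tested). The median log2 change was 0.14. That median was 0.04 with wild-type library 1 left out and 0.33 with wild-type library 2 left out. Gp5, which encodes platelet glycoprotein V and was singled out after its values were seen, stood at 3.59 and 4.20 FPKM in knockout and 1.17 and 1.18 FPKM in wild type (log2 change 1.17, SE 0.16, adjusted p = 0.101 in limma). Its log2 change ran from 1.08 to 1.26 when single libraries were left out. Gp9, which encodes platelet glycoprotein IX, was much closer, at 10.5 FPKM in both knockout libraries and 8.05 and 10.1 FPKM in wild type, as was Itga2b, the platelet integrin alpha chain, at 240 and 235 FPKM in knockout and 215 and 232 FPKM in wild type. Pf4, platelet factor 4, overlapped, at 21.4 and 37.9 FPKM in knockout and 22.8 and 58.2 FPKM in wild type, with library 2 above library 1 in each genotype.

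Kit signalling genes were expressed although the receptor was listed at 0. Of 29 listed genes 28 were tested and 0 passed in limma, with 12 higher and 3 lower in both of the knockout libraries (29.9% and 10.8% of all genes). At an unadjusted p under 0.05 there were 3 higher and 0 lower (962 and 256 of the 10670 genes tested). The median log2 change was 0.15. On median-centred values 7 were higher and 4 lower (19.9% and 20.1% of all genes). Plcg2, phospholipase C gamma 2, stood at 14.6 FPKM in both knockout libraries and 8.80 and 8.65 FPKM in wild type (log2 change 0.68, SE 0.13, unadjusted p = 0.0018 and adjusted p = 0.166 in limma). Its log2 change ran from 0.67 to 0.69 when single libraries were left out. Stat5a, a mediator of erythropoietin and cytokine signals, stood at 16.4 and 15.1 FPKM in knockout and 12.3 and 10.6 FPKM in wild type (limma adjusted p = 0.361). The most abundant were the kinase genes Akt1, at 198 and 183 FPKM in knockout and 176 and 166 FPKM in wild type, and Btk, at 77.3 and 74.0 FPKM in knockout and 60.0 and 64.7 FPKM in wild type.

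Genes reported to be under Myb control had no common direction. Of 14 listed genes 10 were tested and 0 passed in limma, with 2 higher and 1 lower in both of the knockout libraries (29.9% and 10.8% of all genes). At an unadjusted p under 0.05 there were 1 higher and 0 lower (962 and 256 of the 10670 genes tested). The median log2 change was −0.04, and ran from −0.21 to 0.12 when single libraries were left out. Ccnb1, cyclin B1, was the gene that was lower in both, at 40.2 and 34.3 FPKM in knockout and 47.3 and 45.5 FPKM in wild type (limma adjusted p = 0.479). Bcl2, the survival gene that Myb activates, stood at 26.6 and 28.4 FPKM in knockout and 25.7 and 25.2 FPKM in wild type. The chaperone gene Hspa8 and the topoisomerase gene Top2a overlapped, at 674 and 419 FPKM in knockout against 787 and 491 FPKM in wild type for Hspa8, and 62.9 and 49.5 FPKM against 71.5 and 56.0 FPKM for Top2a.

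**Figure D4:**
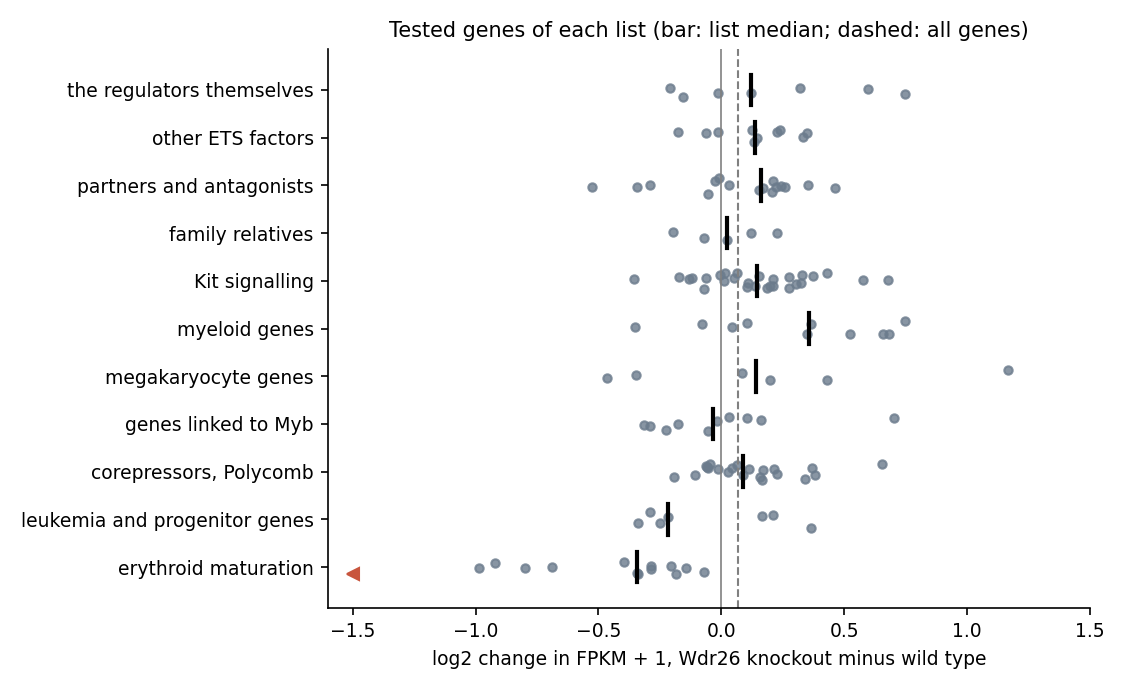
Each point is the log2 change of a tested gene, knockout minus wild type, by list, with a bar at the median of the list and a dashed line at the median of all genes tested; a triangle at the left edge marks Slc4a1, which lies at −4.18. The myeloid genes have the highest median, 0.36, and the erythroid maturation genes the lowest, −0.34. The lists were chosen with earlier results of these data known, so these medians are descriptions.

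The genes with patterns nearest to those of Fli1, Gata2 and Etv6 over the 4 libraries were found by the Euclidean distance between log2 profiles, each less its own mean, among 7756 genes with a mean of at least 5 FPKM. With 4 libraries such likeness is a description and says nothing of shared control. Among the nearest to Fli1 were Nckap5l (distance 0.041) and Vps26b (0.053). Nckap5l stood at 13.5 and 15.0 FPKM in knockout and 8.23 and 7.92 FPKM in wild type. For Gata2 the nearest were Zfp358 (0.021), Selm (0.032) and Siae (0.033), and for Etv6 they were Pigs (0.014), Irgm1 (0.022) and Mxd4 (0.026). None of these 8 genes passed the threshold, with limma adjusted p between 0.152 and 0.486. Their choice by likeness to genes that did not pass made that likely.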

How the data were processed

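RNA of 4 libraries, 2 of Wdr26 knockout and 2 of wild-type DS19 cells, was sequenced after depletion of ribosomal RNA, per the labels' protocols. The authors deposited 1 FPKM value per gene and library; the header names no unit, and FPKM was inferred because values times transcript length summed to between 1.02e+09 and 1.04e+09 in each library. The submitters' processing notes list TopHat2 and mm10, with no version; how FPKM were computed is not stated in the sources used here. Transcript lengths came from GENCODE M21 and coordinates and promoters from RefSeq (GRCm38.p6).

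Depth was read from the low values of genes of 400 to 1500 bases that have 1 transcript, which lie at multiples of 1 fragment. It came to 19550000 and 19050000 fragments in knockout libraries 1 and 2 and 19600000 and 20300000 in wild-type libraries 1 and 2; between 80.2% and 85.8% of these values lay within 0.2 fragments of a whole number. Fragment numbers are therefore approximate, and no counting interval was computed.

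Genes that reached 1 FPKM in 2 or more libraries were compared on log2(FPKM + 1) with limma 3.58.1 in R 4.3.3 (eBayes with trend), adjusted over all 10670 genes, with a threshold of 0.05. The procedure was also run on simulated, independent libraries with the same spread for every gene and known changes larger than those of the regulators. That run does not show how it performs at the changes and spreads seen here. Tables were made with pandas 2.3.3 and figures with matplotlib 3.10.9. Ratios are of FPKM within a library.

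The members and gene lists were chosen with earlier results of these data known. Beside the members and Wdr26, the text names for each list the 2 most abundant genes, up to 3 past the threshold and up to 2 with the largest change, a mean of at least 5 FPKM and genotypes apart, with the family partners, and the genes nearest in pattern to Fli1, Gata2 and Etv6, of which 1 is not reported here. Alternatives were median centring, quantile normalization, other filters, a pseudocount of 0.1, no trend, a block for library number (with and without centring), leaving out each library, and omitting 11 globin genes with totals rescaled.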

Additional observations from a re-analysis of the deposited data

How the results depend on the processing

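Of the 10670 genes 10 passed; 0 passed with no filter on low genes, 2 with a mean of at least 5 FPKM, 1863 with the library number as a replicate block and 1391 with the block on median-centred values, and between 3 (with wild-type library 1 left out) and 738 (with knockout library 1 left out) with a library left out. Of the 7 regulators tested 0 passed. With the replicate block 2 did, Fli1 and Gata2 (limma adjusted p = 7.11e-06 and 0.00141), where 17.5% of all genes passed. The same 2 passed with the block on median-centred values. With the block, 4 libraries leave almost no information on the spread of each gene. Its p-values therefore rest largely on spread pooled over genes. The libraries of a number share only that number in the labels; the difference between libraries 1 and 2 correlated between genotypes across genes (Pearson r = 0.606, over genes, which are not independent replicates). Some differences that did not pass the threshold changed sign. Csf2rb was at −0.035 with median centring, with and without the block, −0.042 with quantile normalization and −0.030 with globin genes left out. Gata1 was at −0.043 with median centring, with and without the block, and −0.039 with globin genes left out. Ikzf5 was at −0.053 with median centring, with and without the block, −0.052 with quantile normalization and −0.043 with globin genes left out. With single libraries left out the log2 change ran from −0.28 to 0.25 for Spi1, −0.46 to 0.042 for Lyl1, −0.011 to 0.25 for Runx1, −0.48 to 0.16 for Ikzf1, −0.19 to 0.17 for Cbfb, −0.053 to 0.14 for Csf2rb, −0.18 to 0.055 for Elf2, −0.0067 to 0.30 for Erf, −0.075 to 0.14 for Gata1, −0.22 to 0.081 for Hbb-b1, −0.57 to 0.12 for Hspa8, −0.17 to 0.41 for Ikzf4, −0.056 to 0.10 for Ikzf5, −0.15 to 0.043 for Lmo2, −0.69 to 0.55 for Mybl2 and −1.01 to 0.31 for Pf4. The cause was not tested. On median-centred values 3 higher and 2 lower other ETS genes were apart, 3 and 3 partners, 7 and 4 Kit signalling genes, 6 and 0 myeloid genes, 2 and 1 megakaryocyte genes, 1 and 2 genes under Myb control, 7 and 5 corepressor or Polycomb genes, 2 and 3 leukemia genes and 0 and 10 erythroid genes. With the block 16 other genes named here passed that did not pass otherwise with all 4 libraries, Cbfa2t3, Ccnb1, Cdkn2a, Cebpa, Coro1a, Elk1, Epb42, Epor, Gp5, Hdac1, Laptm5, Mta1, Pf4, Plcg2, Slc4a1 and Stat5a, and 12 of them on median-centred values, where Cdkn2a, Elk1, Epor and Hdac1 did not. With knockout library 1 left out 9 other genes passed (Cbfa2t3, Coro1a, Epb42, Gp5, Laptm5, Mta1, Mybl2, Plcg2 and Slc4a1), and with knockout library 2 left out 4 (Gp5, Pf4, Plcg2 and Slc4a1). Fli1 kept its direction in the 13 alternatives, from 0.67 to 0.83, as did Gata2, from 0.52 to 0.76, in those in which it was tested; it was not tested at a mean of at least 5 FPKM.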

Other observations

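Corepressor and Polycomb genes that work with these regulators were all expressed. All 21 were tested and 0 passed in limma, with 7 higher and 1 lower in both of the knockout libraries (29.9% and 10.8% of all genes). At an unadjusted p under 0.05 there were 3 higher and 0 lower (962 and 256 of the 10670 genes tested). The median log2 change was 0.09 beside 0.07 for all genes. Mta1, a subunit of the NuRD repressor complex, stood out within its list at 255 and 278 FPKM in knockout and 169 FPKM in both wild-type libraries (log2 change 0.65, SE 0.13, unadjusted p = 0.0024 and adjusted p = 0.183 in limma). Its partner Chd4 stood at 106 and 96.7 FPKM in knockout and 88.4 and 85.6 FPKM in wild type, and Hdac1 at 40.6 and 32.03 FPKM in knockout and 30.8 and 24.5 FPKM in wild type.

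Of other genes tied to leukemia or the progenitor state, 7 of 10 were tested and 0 passed in limma. In both of the knockout libraries 2 were higher and 3 lower (29.9% and 10.8% of all genes). At an unadjusted p under 0.05 there were 1 higher and 0 lower (962 and 256 of the 10670 genes tested). Their median log2 change was −0.22, and was 0.02 with knockout library 2 left out and 0.04 with wild-type library 1 left out. Cdkn2a, which encodes the tumor suppressors p16Ink4a and p19Arf, stood at 132 and 124 FPKM in knockout and 93.4 and 105 FPKM in wild type (limma adjusted p = 0.395), and Trp53 at 274 and 248 FPKM in knockout and 224 and 226 FPKM in wild type. The erythropoietin receptor gene Epor stood at 283 and 225 FPKM in knockout and 327 and 313 FPKM in wild type. Of the 14 erythroid maturation genes, all tested, 0 passed in limma. In both of the knockout libraries 0 were higher and 10 lower (29.9% and 10.8% of all genes). At an unadjusted p under 0.05 there were 0 higher and 3 lower (962 and 256 of the 10670 genes tested). The median log2 change was −0.34. Slc4a1, the anion exchanger band 3 of the red cell membrane, stood at 48.6 and 6.70 FPKM in knockout and 436 and 285 FPKM in wild type (log2 change −4.18, SE 0.80, unadjusted p = 0.0018 and adjusted p = 0.166 in limma). Epb42, protein 4.2 of the red cell membrane, stood at 17.7 and 7.13 FPKM in knockout and 29.9 and 18.4 FPKM in wild type (limma adjusted p = 0.449).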
